A study of Mus musculus with 6 samples.

Results

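The cytosolic ribosomal protein genes code for the proteins of the ribosome that works outside mitochondria. Their messenger RNAs were read here in central retina from rd1/rd1 mice. These mice carry mutant Pde6b, which codes for part of the rod phosphodiesterase, and lose their rods early and their cones later. Members were chosen by name alone: genes with 1 symbol on the array that begins with Rpl or Rps and a digit, plus Rplp0, Rplp1, Rplp2 and Rpsa, without the Rps6 kinases, Rps19bp1 and pseudogenes. The rule found 64 genes among 19057 named on the array, 38 of the large and 26 of the small subunit. Among the 26, Rps23rg1 is a retroposed copy of Rps23 and not a known part of the ribosome. It is kept because the rule takes it in, as is Rps4l, a retroposed paralogue of Rps4x. Since the rule goes by name, other members may also lie outside the ribosome. Each gene is given by its probe with the highest mean.

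The rd1/rd1 animals were aged 2 months for 3 samples and 8 months for the other 3, and the labels name no treatment. All 6 carry the rd1 mutation, so the comparison is of age within the mutant, with no wild-type group. Each sample pooled 3 to 6 punches of central retina, 1.5 mm across, and RNA was read on single-colour Illumina bead arrays. The number of animals per pool is not given, so p-values measure the spread between these pools, which may in part be technical.

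A ribosome has a small subunit, which reads the messenger RNA, and a large subunit, which joins the amino acids. Each subunit is a core of ribosomal RNA with one copy of most of its proteins, which cells make in matched amounts. In mammals the messenger RNAs of these proteins begin with a stretch of pyrimidines, the 5′ terminal oligopyrimidine or TOP motif, through which the kinase complex mTORC1 and the protein Larp1 control their translation, so a level of messenger RNA does not give a rate of protein synthesis. Photoreceptors spend much of their protein synthesis on renewing outer segments.

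The windows of 50 bases below, 30 before and 20 from the RefSeq gene start on (GRCm38.p6, written 5′ to 3′ on the gene's strand), show the sequence around the start for members at both ends of the range of changes. The longest run of C or T is in capitals, and in several windows it lies away from the start. Only Rpl38 and Rps6 among these had a C at the start followed by 4 pyrimidines. The first 5 genes are among those with the lowest p, Rpl12, Rpl22l1, Rpl27 and Rps7 had positive changes, and Rps6 has a start of the TOP type and a change near 0. Rpl22 has 2 starts in the RefSeq records.
Rpl22, first start, chr4:152324406-152324455, + strand: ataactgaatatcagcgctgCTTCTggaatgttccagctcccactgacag
Rpl22, second start, chr4:152325696-152325745, + strand: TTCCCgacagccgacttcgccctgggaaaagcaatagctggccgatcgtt
Rpl38, chr11:114668550-114668599, + strand: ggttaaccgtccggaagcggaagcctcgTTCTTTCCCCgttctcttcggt
Rpl39, chrX:37085203-37085252, - strand: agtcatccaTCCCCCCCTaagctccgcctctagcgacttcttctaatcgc
Rps4x, chrX:102189372-102189421, - strand: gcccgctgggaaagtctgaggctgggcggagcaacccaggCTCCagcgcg
Rps9, chr7:3704011-3704060, + strand: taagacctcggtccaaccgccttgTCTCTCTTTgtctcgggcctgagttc
Rpl12, chr2:32961682-32961731, + strand: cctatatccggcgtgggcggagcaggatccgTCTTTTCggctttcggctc
Rpl22l1, chr3:28805478-28805527, + strand: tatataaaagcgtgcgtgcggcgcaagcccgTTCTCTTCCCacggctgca
Rpl27, chr11:101442215-101442264, + strand: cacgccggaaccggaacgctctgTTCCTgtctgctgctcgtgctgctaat
Rps7, chr12:28635934-28635983, - strand: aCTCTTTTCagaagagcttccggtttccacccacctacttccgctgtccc
Rps6, chr4:86857348-86857397, - strand: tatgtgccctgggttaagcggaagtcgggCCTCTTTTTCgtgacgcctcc

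Of the 64 members, 53 had a window in the RefSeq table, with 63 windows in all. A run of at least 8 pyrimidines was present in 28 of the 63 windows (44.4%), against 20.2% of all 32851 windows. A C at the start followed by 4 pyrimidines was present in 9 windows (14.3%, against 2.51% of all). The 300-base promoters that these windows lie in were searched on both strands for CCGGAAG, the core bound by ETS family factors such as GABP, which 24 of 63 held (38.1%, against 8.86% of all), and for AAGATGG, the core bound by YY1, which 8 held (12.7%, against 6.34%). RefSeq starts can lie some bases away from the start used in the cell, and a match is a description of the letters only. The tested members with a run of 8 pyrimidines numbered 24 and had a median change between the ages of −0.057, and the 25 without one had −0.061. Members with a C and 4 pyrimidines at the start numbered 8, with a median of −0.057 and 7 negative. The 41 without such a start had −0.059, with 29 negative. The 21 with CCGGAAG had a median of −0.057 and the 28 without it −0.058. The 8 with AAGATGG had a median of −0.033, with 5 negative, and the 41 without it −0.059, with 31 negative; this difference was not tested.

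The median change of the ribosomal protein genes from 2 to 8 months was slightly negative, and no single gene passed the test. Their mean levels in the samples of the 2 ages overlapped, and the genes varied together, so counts of genes are not counts of independent results. Of the 64 members, 58 passed the filter on dim probes and were tested. Their changes, 8 months minus 2 months on the log2 scale, had a median of −0.058 and ran from −0.28 for Rps27l to 0.08 for Rpl12. They were negative for 42 of the 58 (72.4%), against 49.8% of all 12046 tested genes, whose median change was 0.000482. After Benjamini-Hochberg adjustment over all genes, 0 of the 58 passed 0.05 in limma, where 0.224% of all tested genes did, and the smallest adjusted p of a member was 0.249. At an unadjusted p below 0.05, 7 members were lower (12.1%, against 5.34% of all tested genes) and 0 were higher (0%, against 5.1%). The 3 values at 8 months lay below all 3 at 2 months for 9 members (15.5%, against 7.59% of all) and above them for 1 (1.72%, against 7.45%). Over both directions the members were near the background, with 12.1% against 10.4% at that p and 17.2% against 15.0% without overlap. The changes were small: 38 of the 58 lay within 0.1 of 0, and the 95% interval of the change excluded a fall of 1.5-fold for all but Rpl23 and Rps27l and a rise of 1.5-fold for all 58.

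**Figure D1:**
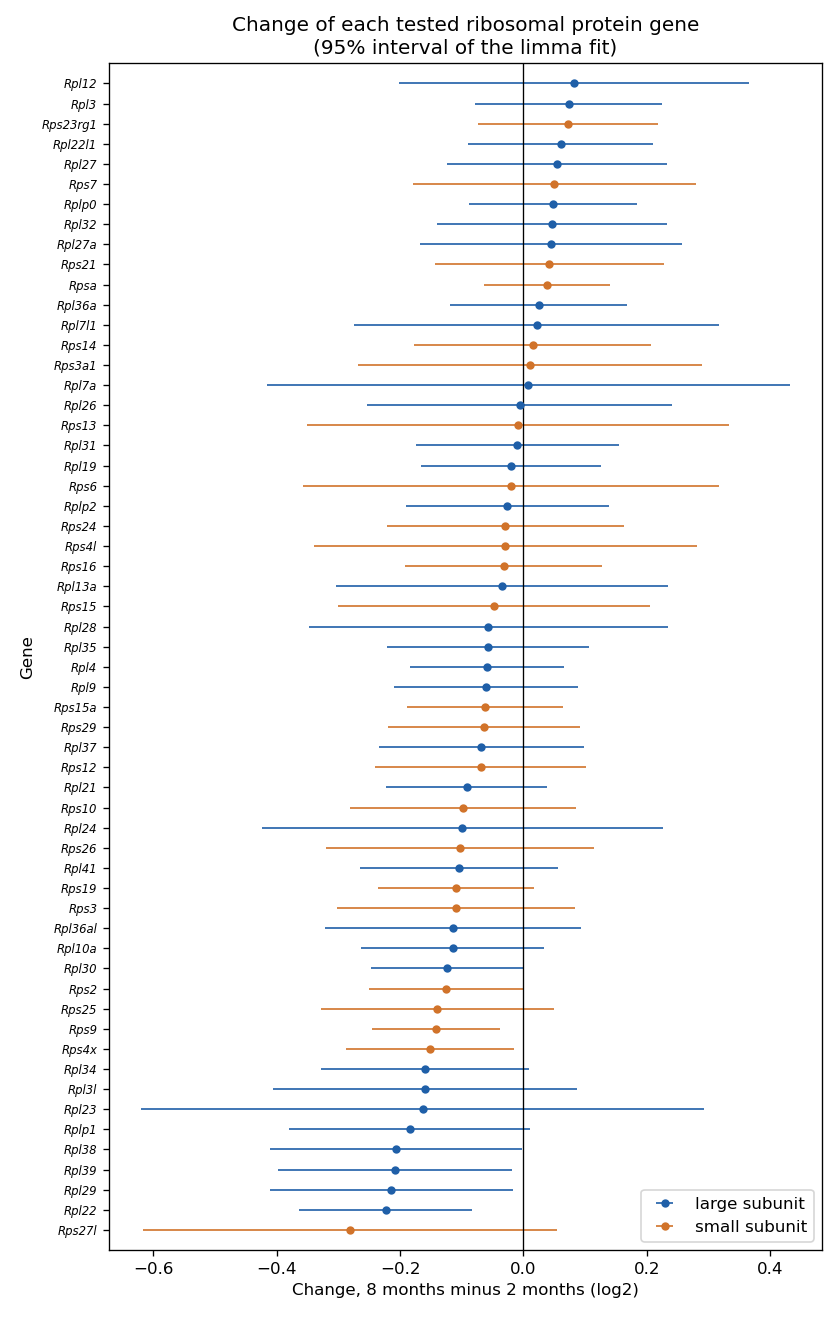
Change of each of the 58 tested genes between 2 and 8 months on the log2 scale (points) with the 95% interval of the limma fit (bars), large subunit in blue and small subunit in orange. Most points lie left of 0, 42 of 58, and most intervals cross it.

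The large and the small subunit had nearly the same median change; the difference between them was not tested. The 34 tested large subunit genes had a median change of −0.058, with 24 negative, and the 24 tested small subunit genes one of −0.055, with 18 negative. No overlap with lower values at 8 months was seen for 5 of the large (14.7%) and 4 of the small subunit (16.7%), against 7.59% of all tested genes. Higher values without overlap were seen for 0 and 1 (0% and 4.17%, against 7.45%). At an unadjusted p below 0.05, 5 and 2 were lower (14.7% and 8.33%, against 5.34%) and 0 of each were higher (0%, against 5.1%). Within a sample the mean level of the large subunit, relative to the mean of the 6 samples, differed from that of the small subunit by −0.014 to 0.0096, so both subunits went up and down together from sample to sample.

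The members' shared level differed between samples of one age about as much as between the ages. Relative to the mean over all 6 samples, the 58 genes averaged 0.088, 0.0086 and −0.0061 in 2 month replicates 1, 2 and 3, and −0.040, 0.0082 and −0.059 in 8 month replicates 1, 2 and 3. Replicate 1 of the 2 month samples stood highest and 8 month replicate 3 lowest, and the ages overlapped, since 8 month replicate 2 lay above 2 month replicate 3. The difference between the ages, −0.060, compared with an SD between samples of 0.0505 at 2 months and 0.0345 at 8 months. Of the 58 genes, 27 had their highest value in 2 month replicate 1, and 14 their lowest in 8 month replicate 3. Without 2 month replicate 1 the median change was −0.026, 31 of 58 genes were negative, and 3 had an unadjusted p below 0.05 (5.17%, against 9.47% of all genes). Without 8 month replicate 1, 2 or 3 it was −0.051, −0.085 and −0.063, and the count at an unadjusted p below 0.05 was 3, 5 and 3 (5.17%, 8.62% and 5.17%). The share of all genes in these fits is not given here, so these counts are not a result about the members. Without 2 month replicate 2 or 3 it was −0.076 and −0.082, with 5 and 13 genes at that p (8.62% and 22.4%, against 8.93% and 12.2% of all genes).

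**Figure D2:**
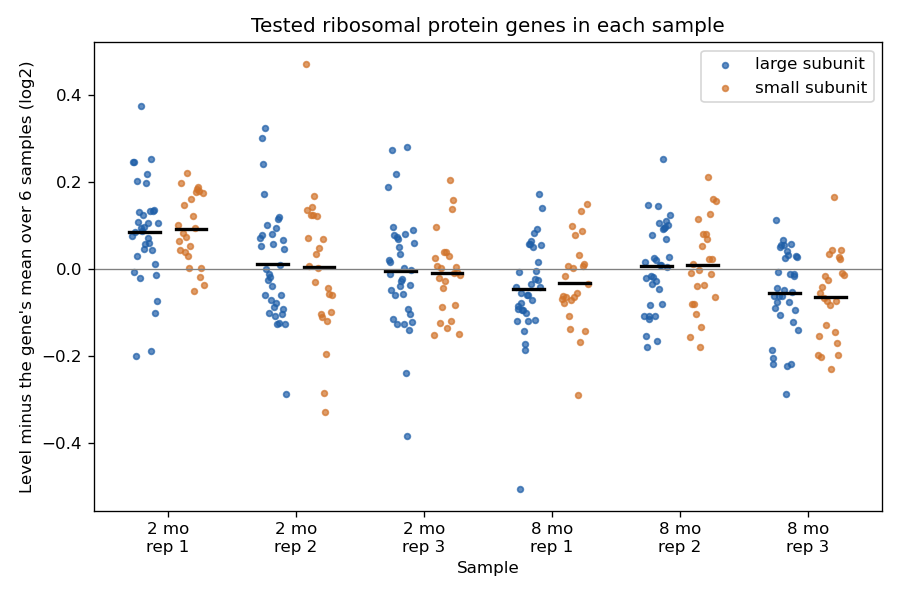
Level of each tested gene in each sample minus its mean over the 6 samples (log2), large subunit in blue and small subunit in orange, with black bars for the mean of each subunit. The bars of both subunits are highest in 2 month replicate 1, at 0.084 and 0.093, and lowest in 8 month replicate 3, at −0.055 and −0.065.

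Other bright probes did not share the negative median. The members' probes ranged from 7.22 to 14.2 in mean level, with a median of 12.03, on arrays whose median was 7.19. The 29 members above a level of 12 had a median change of −0.064, with 22 negative, while the other 357 tested genes above 12 had one of 0.0035, with 172 negative. The 29 members at or below 12 had a median of −0.035, with 20 negative. Probe levels depend on the probe as well as on the transcript, so they do not rank the genes by amount.

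**Figure D3:**
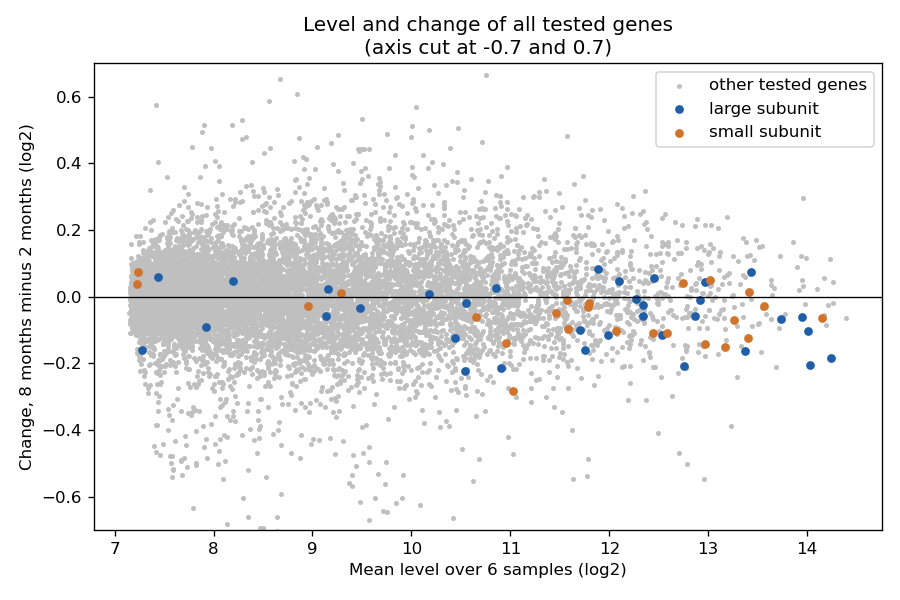
Mean level over 6 samples against the change between the ages, both on the log2 scale, for 12046 tested genes, with members in blue (large subunit) and orange (small subunit). The vertical axis is cut and leaves out 60 other genes, and the members above a level of 12 sit mostly below 0, 22 of 29.

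Among the large subunit genes Rpl22, whose protein sits on the outside of the subunit and also binds RNA elsewhere, had the smallest p of all members. It was at 10.62, 10.61 and 10.73 in 2 month replicates 1 to 3 and at 10.50, 10.43 and 10.36 in 8 month replicates 1 to 3. Every 8 month value lay below every 2 month value. The change was −0.22 (SE 0.0596, n = 3 per age, limma adjusted p = 0.249), or −14.3% if the values are plain log2, and leaving out 1 sample at a time gave −0.26 to −0.19. Its paralogue Rpl22l1, which can take the place of Rpl22 in the ribosome of mice and whose level Rpl22 is known to hold down, was at 7.42, 7.48 and 7.31 at 2 months and 7.39, 7.54 and 7.47 at 8 months. These values overlap and lie close to the array median, where differences are compressed. The difference of Rpl22l1 minus Rpl22 within each array was 0.28 higher at 8 months, with no overlap of the ages (exact permutation test, two-sided, p = 0.1, the smallest that 3 against 3 allows, and 0.4 after adjustment over 4 paralogue pairs). Most of this difference is the change of Rpl22 itself, given above. In the other pairs the same difference moved by −0.23 for Rpl3l minus Rpl3, 0.12 for Rps4l minus Rps4x and −0.14 for Rpl36al minus Rpl36a (exact permutation test, adjusted p = 0.6 for each). The probe of Rpl3l, with a mean of 7.28, also lay close to the array median.

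Rpl39, a very small protein in the wall of the tunnel through which the new chain leaves, was at 13.00, 12.83 and 12.74 at 2 months and 12.67, 12.73 and 12.55 at 8 months. The ages did not overlap, though 2 month replicate 3 and 8 month replicate 2 were almost level, and the change was −0.21 (SE 0.0808, n = 3 per age, limma adjusted p = 0.430). Rpl29, a large subunit protein whose loss makes mice small, was at 11.16, 10.96 and 10.93 at 2 months and at 10.79, 10.93 and 10.69 at 8 months. The ages did not overlap at this probe, though 2 month replicate 3 and 8 month replicate 2 were almost level. Its change of −0.21 (SE 0.0839, limma adjusted p = 0.433) was matched by −0.22 at the dimmer probe of Rpl29. There the ages overlapped, with 8.42 in 2 month replicate 2 and 8.47 in 8 month replicate 3. Rpl38, a large subunit protein needed in the mouse embryo for translating Hox messenger RNAs, was at 14.02, 14.33 and 14.04 at 2 months and 13.93, 13.87 and 13.96 at 8 months. Its bright probe had a change of −0.21 (SE 0.0871, limma adjusted p = 0.474), while its dimmer probe ran from 8.71 to 8.94 at 2 months and 8.86 to 8.94 at 8 months, a change of 0.09 in the other direction. Rpl30, whose protein binds its own RNA in yeast, had a change of −0.12 (SE 0.0528, limma adjusted p = 0.478), and −0.08 at its dimmer probe.

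In the small subunit Rps9, a small subunit protein that affects decoding accuracy in yeast, had the smallest p. It was at 13.01, 13.03 and 13.06 at 2 months and at 12.89, 12.88 and 12.91 at 8 months. Every 8 month value was below every 2 month value at this probe and the change was −0.14 (SE 0.0444, n = 3 per age, limma adjusted p = 0.316), or −9.36%. Its other probe was at 11.82 or above at 2 months and at 11.74, 11.68 and 11.74 at 8 months, also without overlap, a change of −0.19. Rps4x, the X-linked gene of a small subunit protein, was at 13.24, 13.31 and 13.20 at 2 months and at 13.11, 13.16 and 13.02 at 8 months, again without overlap (−0.15, SE 0.0580, limma adjusted p = 0.421). Its retroposed paralogue Rps4l was at 8.91, 8.85 and 9.16 and at 8.67, 9.04 and 9.12, a spread within each age larger than its change of −0.03 (SE 0.133).

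Rps2 and Rps3, both at the channel where the messenger RNA enters the small subunit, had probes that differed in size but not in sign. The brighter probe of Rps2 was at 13.49, 13.53 and 13.38 at 2 months and 13.34, 13.32 and 13.36 at 8 months, a change of −0.13 (SE 0.0536, limma adjusted p = 0.481), and the dimmer one had a change of −0.33. For Rps3 the changes were −0.11 (SE 0.0823, limma adjusted p = 0.739) and −0.33, and the dimmer probe was at 11.63, 11.40 and 11.11 at 2 months and 10.98, 11.06 and 11.11 at 8 months, with replicates 3 of both ages level. Rps19, the gene most often mutated in Diamond-Blackfan anaemia in humans, had values of 12.62, 12.71 and 12.58 at 2 months and 12.47, 12.54 and 12.56 at 8 months, with no overlap and a change of −0.11 (SE 0.0540, limma adjusted p = 0.572). In all, 16 members had more than 1 probe above the filter. Their probes differed in sign for 8, namely Rpl23, Rpl27a, Rpl28, Rpl31, Rpl38, Rpl7l1, Rps12 and Rps24, were all negative for the other 8 and all positive for 0.

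**Figure D4:**
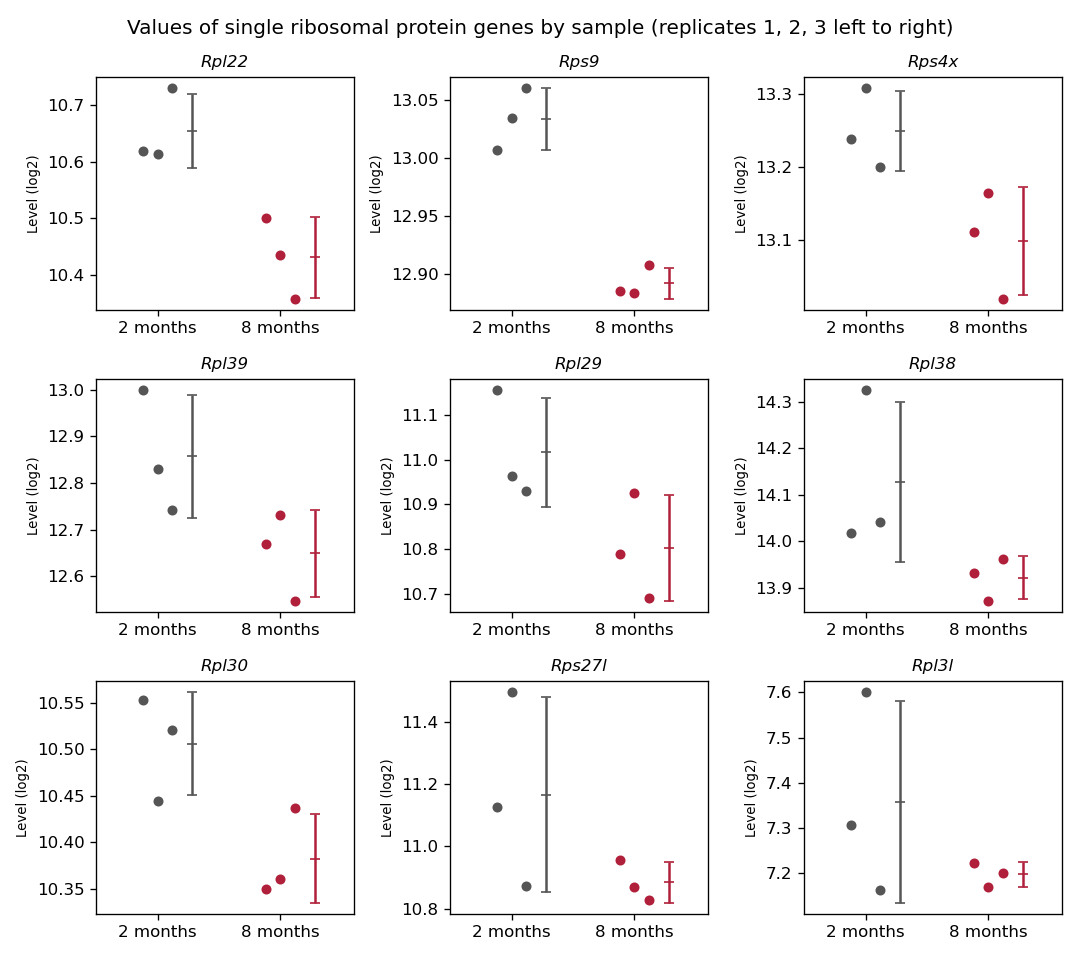
Level (log2) of 9 members in each sample, replicates 1 to 3 from left to right at each age, with the mean and SD (n = 3) to the right of the points; the vertical axes do not start at 0. The ages do not overlap for Rpl22, Rps9, Rps4x, Rpl39, Rpl29, Rpl38 and Rpl30, though only narrowly for Rpl39, Rpl29 and Rpl30. Rps27l and Rpl3l overlap and have their highest value in 2 month replicate 2, at 11.50 and 7.60.

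Genes of the ribosomal stalk, the arm that recruits elongation factors, did not go one way. Rplp1 was at 14.33, 14.48 and 14.19 at 2 months and 14.24, 14.06 and 14.15 at 8 months (−0.18, SE 0.0835, limma adjusted p = 0.514). Rplp2, its partner in the stalk dimer, had a change of −0.03 (SE 0.0702), and Rplp0, the base of the stalk, one of 0.05 (SE 0.0582). Rps6, the protein that S6 kinases phosphorylate downstream of mTORC1, was at 11.97, 11.51 and 11.93 at 2 months and 11.63, 12.01 and 11.72 at 8 months, a wide spread at both ages around a change of −0.02 (SE 0.144). Rps25, needed for initiation at viral internal entry sites, had a change of −0.14 (SE 0.0805), and Rpl26, which binds p53 messenger RNA in human cells, one of −0.01 (SE 0.105). Rps29, of the small subunit, had one of the brightest probes and a change of −0.06 (SE 0.0664). None of these passed the test. Genes such as Rpl5, Rpl7, Rpl10, Rpl11, Rps27 and Rps27a were not analysed here.

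The positive end of the range was short. Rpl12, a protein at the foot of the stalk, was at 11.99, 11.60 and 11.94 at 2 months and 12.02, 12.01 and 11.74 at 8 months (0.08, SE 0.121, limma adjusted p = 0.898). Rpl3, close to the site of peptide bond formation, was at 13.36, 13.30 and 13.52 at 2 months and 13.49, 13.46 and 13.46 at 8 months (0.07, SE 0.0647). Rpl27, Rps7 and Rps23rg1 had changes of 0.05, 0.05 and 0.07, and in all of these the ages overlapped. The probe of Rps23rg1, with a mean of 7.23, lay near the array median. Rpsa, a small subunit protein also known as the laminin receptor, was the 1 member with higher values at 8 months and no overlap, but its probe was at 7.18 to 7.23 at 2 months and 7.23 to 7.25 at 8 months, near the array median.

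Some members varied more between samples of 1 age than between the ages. Rps27l, a paralogue of Rps27 that p53 switches on, had the most negative change, −0.28 (SE 0.143, limma adjusted p = 0.585). It was at 11.13, 11.50 and 10.87 at 2 months and at 10.96, 10.87 and 10.83 at 8 months, and the change was −0.12 without 2 month replicate 2. Rpl3l, the paralogue of Rpl3 that mice make in heart and skeletal muscle, was at 7.31, 7.60 and 7.16 at 2 months and at 7.22, 7.17 and 7.20 at 8 months. Most of these values lie close to the array median, where differences are compressed. The change of Rpl3l went from −0.16 (SE 0.105) to −0.04 without 2 month replicate 2. That sample also had the highest summed level of skeletal muscle markers (log2 of the summed unlogged values, 7 of 10 markers tested), 12.79, where 2 month replicates 1 and 3 were at 12.21 and 12.08 and the 8 month samples at 11.80 to 11.98. The marker Pvalb, at 11.32 to 11.71 over the 6 samples, made up most of that sum in every sample but 2 month replicate 2. In those samples the sum says little about the remaining muscle markers. Myl1, also in the sum, was at 9.32, 11.14 and 7.31 at 2 months and 7.14 to 7.52 at 8 months. The red blood cell markers of 2 month replicate 2 (4 of 8 tested) were at 13.7, against 12.5 and 12.3, and 11.2 to 11.3 at 8 months. Its pigment epithelium markers (11 of 12 tested) were at 15.1, against 14.7 and 14.8, and 13.9 to 14.8 at 8 months. With the mean log2 level of the red blood cell markers as a covariate the changes of Rps27l and Rpl3l were 0.33 and 0.29 (limma adjusted p = 0.740 and 0.684). This covariate did not overlap between the ages and varied little at 8 months (SD 0.592 at 2 months and 0.0301 at 8 months). Age and covariate could be separated only in part, so these 2 changes are uncertain. Rpl23, another large subunit protein, was at 13.17, 13.54 and 13.65 at 2 months and at 12.87, 13.52 and 13.49 at 8 months. Rpl7a, also of the large subunit, was at 10.44, 10.30 and 9.80 and at 10.16, 10.44 and 9.96. Both had changes smaller than their spread (−0.16, SE 0.195, and 0.008, SE 0.181).

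Among the X-linked members Rps4x and Rpl39 were in the lower part of the range and Rpl36a had a change of 0.03. Sex-linked genes differed between pools: Eif2s3y, on the Y chromosome, was at 7.79 and 8.27 in 2 month replicates 1 and 2 and 7.10 to 7.18 in the others, where Xist, the RNA of the inactive X, was at 10.48 to 11.10, against 9.40 and 8.73. The part of this difference in the values of X-linked genes was not tested. The other paralogues with a tested probe, Rpl7l1 and Rpl36al, had changes of 0.02 (SE 0.126) and −0.11 (SE 0.0886).

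In samples of whole tissue, fewer cells of a type and less RNA per cell cannot be told apart. Summed marker levels of 3 retinal cell types lay well above the array median, but a sum over genes lies above single probes by construction. Marker sets of other tissues did so as well, with lens markers at 10.80 to 11.81 over the 6 samples. The sums therefore do not check the tissue label. Müller glia (8 of 10 tested) were at 15.0 to 15.2 at 2 months and 15.1 to 15.3 at 8 months. The ages did not overlap in the sums for bipolar cells (8 of 10), at 14.78 to 14.82 and 14.64 to 14.72, with 6 of 8 genes negative. Bright genes dominate such a sum. As a mean log2 level relative to the 6 samples, bipolar markers did overlap. They were at 0.0061 in 2 month replicate 1 and 0.021 in 8 month replicate 2. The sums of amacrine cell markers (10 of 10) did not overlap between the ages, at 14.57 to 14.59 and 14.64 to 14.75, with 9 of 10 genes positive. Shared photoreceptor markers (8 of 9) were at 12.99 to 13.20 and, without overlap, 12.67 to 12.87, with 8 of 8 negative. Cone markers (9 of 10 tested) were at 13.8 to 14.2 at 2 months and 12.6 to 13.1 at 8 months. They were lowest in 8 month replicate 3, as were the sums of shared photoreceptor, bipolar cell and pigment epithelium markers (12.67, 14.64 and 13.88). The ribosomal protein genes, given as a mean level and not a sum, were lowest there too. At the other end the samples differed: cone markers were highest in 2 month replicate 2, at 14.20, and the ribosomal protein genes in 2 month replicate 1. The part of these marker differences in the members' values was not tested. With the mean log2 level of the red blood cell markers as a covariate the members' median change was −0.077, with 40 of 58 negative, that of the large subunit −0.13 and that of the small subunit −0.052. The covariate did not overlap between the ages, so these medians are uncertain and show no difference between the subunits.

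Of the 64 members 6 were not tested because their probes stayed at the array median: Rpl6, Rpl14, Rpl17, Rps20, Rps23 and Rpl39l, whose single values ran from 7.07 to 7.22. All but Rpl39l, a paralogue of Rpl39 made mostly in the testis, belong to the common set of ribosomal proteins. Probes of this gene family can also bind transcripts of its many near-identical processed pseudogenes, and the files do not separate them.

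Other genes of the translation apparatus were compared by the same fit, and none of those in the lists below passed the test over all genes. The 73 tested genes of the mitochondrial ribosome, which makes the few proteins coded in mitochondrial DNA, had a median change of −0.014, with 45 negative. At an unadjusted p below 0.05, 3 were lower (4.11%, against 5.34% of all tested genes) and 0 higher (0%, against 5.1%). Of these Mrpl53, a large subunit protein, was at 10.83, 10.64 and 10.62 at 2 months and 10.59, 10.47 and 10.30 at 8 months (−0.24, SE 0.0902, limma adjusted p = 0.409), and Mrps31 and Mrpl48 had changes of −0.16 and −0.14. The 13 tested elongation and termination genes had a median of −0.062, with 10 negative. Eef1a1, which carries aminoacyl-tRNA to the ribosome, had a change of −0.02 (SE 0.0619), and Eif5a, which helps the ribosome through difficult stretches, one of −0.22 (SE 0.0804, limma adjusted p = 0.403) without overlap, at 10.68, 10.94 and 10.72 against 10.64, 10.54 and 10.50. The 29 tested initiation factors had a median of −0.021, with 16 negative. Their 2 lowest p belonged to subunits of the same factor, which brings the initiator tRNA: Eif2s2 was at 10.07, 10.11 and 9.79 at 2 months and 9.56, 9.71 and 9.71 at 8 months, while the X-linked Eif2s3x was at 10.80, 10.61 and 10.83 and at 10.94, 11.12 and 11.10. Their changes were −0.33 (SE 0.0957, limma adjusted p = 0.282) and 0.30 (SE 0.0781, limma adjusted p = 0.235), in opposite directions. The Y-linked Eif2s3y was raised only in 2 month replicates 1 and 2, at 7.79 and 8.27, so sex-linked signals and age partly coincide. The part of this in the change of Eif2s3x was not tested.

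Genes that build ribosomes had a median nearer to 0. Of 59 tested assembly and nucleolar genes 33 were negative, with a median of −0.016, 4 lower (6.78%, against 5.34% of all) and 1 higher (1.69%, against 5.1%) at an unadjusted p below 0.05. Nop58, a core protein of the particles that methylate ribosomal RNA, was at 9.81, 9.90 and 9.85 at 2 months and 10.21, 10.33 and 10.08 at 8 months. It had the smallest p in these lists, with a change of 0.36 (SE 0.0712, limma adjusted p = 0.140), while Imp3, of the small subunit processome, and Polr1d, shared by RNA polymerases I and III, had changes of −0.18 and −0.24. The 23 tested genes of mTORC1 and of TOP control had a median of 0.021, with 11 negative. Eif4ebp1, the repressor of cap-dependent initiation that mTORC1 inactivates, had a change of −0.35 (SE 0.126, limma adjusted p = 0.396) with values of 8.21, 7.95 and 7.71 at 2 months and 7.74, 7.58 and 7.52 at 8 months. The 13 tested genes of ribosome rescue and quality control had a median of 0.014, with 6 negative. The snoRNA host genes Snhg5 and Snhg12, the only 2 of that list tested, had changes of −0.15 and −0.16 with overlapping ages.

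**Figure D5:**
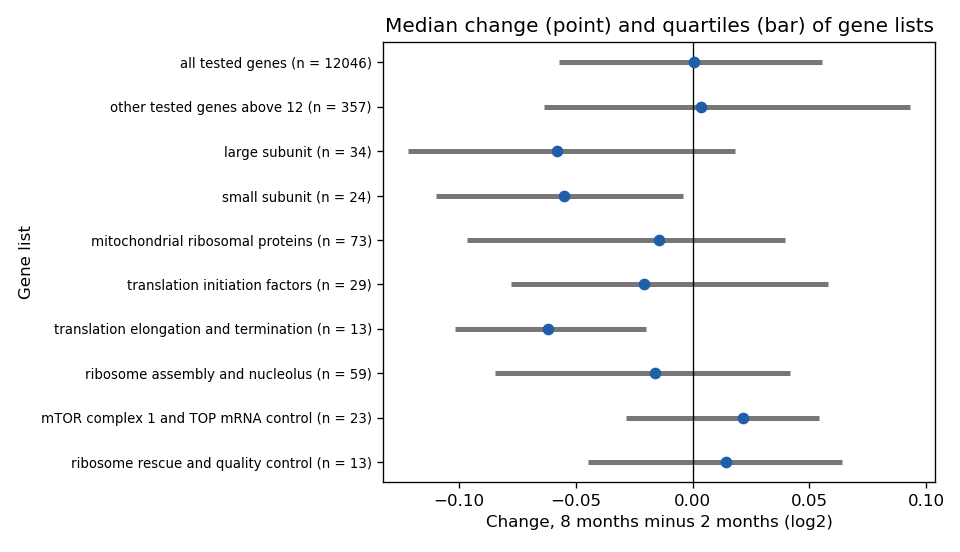
Median change between 2 and 8 months on the log2 scale (points) and its quartiles over genes (bars) for all tested genes, other genes above a level of 12, and lists of the translation apparatus, with the number of tested genes. The medians of the large subunit, the small subunit and the elongation list lie near −0.06, and that of the mitochondrial ribosome at −0.014.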

How the data were processed

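The deposited table holds 1 log2 value per probe and sample, for 45281 probes and 6 arrays. The authors deposited values that were taken as log2 from their range of 6.98 to 14.5. Whether they are plain log2 or variance-stabilised is not known, so percent changes and fold limits hold only for plain log2. The sorted columns agree within 0.00307, as they do after quantile normalization. For software and background correction the status is: not given in the sources used here. No detection p-values were used. The values hold no depth: the number of arrays limits the precision. Groups and replicate numbers come from the sample titles. The descriptions number the 2 month samples differently, giving number 1 to the first and the second and number 2 to the third, so the replicate block rests on the titles.

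Probes had to lie above their array's 50th percentile in 3 or more samples, and of a gene's remaining probes the one with the highest mean stood for it. Gene names came from GEO's platform annotation (34885 with 1 symbol, 18 with several, 10378 with none), which can be old. The fit used limma (version 3.58.1, under R 4.3.3) with functions lmFit and eBayes (4 residual and 3.311 prior degrees of freedom), two-sided, with Benjamini-Hochberg adjustment over 12046 genes at 0.05, without covariate or block. The fit was tested on simulated data. The alternatives were other normalizations, filters, probe choices and priors, a red blood cell covariate, a replicate block and leaving out each sample. Sequences are RefSeq's, build GRCm38.p6.

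The members, lists and rules were chosen with earlier results of these data known. Members were named by size of change, level, spread, disagreement of probes and role, related genes by the smallest p. Rpl30, Rps9, Eef1a1, Xist and Eif2s3y, outside these rules, were named after their values were seen.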

Additional observations from a re-analysis of the deposited data

How the results depend on the processing

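No member passed the adjusted threshold under any of the 16 alternatives. The members' median change kept its sign in all of them, from −0.085 to −0.026, and the medians of both subunits did too. It moved by more than the SD between samples in 1 case, that of the large subunit with the mean log2 level of the red blood cell markers as a covariate (−0.13). Leaving out 1 sample gave 0 members called, medians of −0.085 to −0.026 (large subunit −0.090 to −0.026, small subunit −0.081 to −0.032), 31 to 44 negative members, 13 to 21 members without overlap (22.4% to 36.2%, against 24.0% to 28.3% of all tested genes in the same fits), and 2 to 34 called genes over the whole table. Over the whole table limma called 27 genes, against 7 with no filter, 73 with a stricter filter, 17 with the dimmest kept probe, 104 with a trended robust prior and 0 with the red blood cell covariate, where 836 had an unadjusted p below 0.05. The red blood cell covariate did not overlap between the ages, so age and covariate could be separated only in part. The cause of these differences in count was not tested. Of 476 values for the 30 tested members singled out by the rules, 42 had another sign than in the reported fit, in 20 members, all uncalled. With the replicate number as a block, 32 genes and 0 members were called, and the members' median was −0.058. Same-numbered samples correlated at 0.024, 0.139 and 0.160 in their deviations, each best with its own number, so the pairing is a hint from the data, not the design. Signal over background limits the dim probes.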
